A study of Mus musculus with 4 samples.

Results

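The connexin and pannexin genes Gja1, Gja3, Gja4, Gja5, Gjb2, Gjb6, Gjc1 and Panx1 were followed in 4 mouse melanocyte lines through every probe set mapped to 1 of them alone. These 8 genes were picked with earlier results of the same arrays known, out of 17 connexin and pannexin genes and 18193 genes in all that had a probe set of their own. Their levels and differences are therefore described and not tested. The lines 9v, 10d, 13d and 14d came from the skin of C57BL/6J pups aged 3 days, either wild-type (WT) or carrying bcat*, a stable and transcriptionally active β-catenin mutant made in the melanocyte lineage. All were immortalized cultures grown to 80% confluency in Ham's F12 medium containing 200 nM TPA, the phorbol ester that keeps cultured melanocytes dividing, so that no array shows cells without TPA. RNA of each line was measured on 1 Affymetrix array, with RNA integrity numbers from 9.7 to 9.9. The sample labels give 9v as WT and male, 10d as bcat* and male, 13d as bcat* and female, and 14d as WT and female, whereas the methods of the article give 13d as WT, 14d as bcat* and the mice as male. Each line is thus reported by name.

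Connexins are membrane proteins that assemble in sixes into a hemichannel, and hemichannels of neighbouring cells dock to form a gap junction channel, through which ions, second messengers and small metabolites pass. The subunit makeup sets which cells can couple and what passes between them, since only some connexins form mixed or docked channels with each other. Pannexins resemble connexins in topology but mostly act as single-membrane channels that release ATP. In skin, keratinocytes carry several connexins at once, and melanocytes can couple to keratinocytes and to each other through gap junctions.

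Values are GCRMA intensities on a linear scale, where a gene is represented by its brightest probe set and is called detected from an intensity of 32. The arrays were of similar brightness, with between 35.8% and 36.1% of 45037 probe sets at or above this level. Melanocyte markers were present throughout, as 10 of 11 measured melanocyte markers were detected in each of the 4 lines. Tyrp1, an enzyme of melanin synthesis, ranged from 53999 (9v) to 57044 (13d), and Dct, another, from 53134 (9v) to 57474 (13d). The exception was Ednrb, an endothelin receptor, at 29 on every array. The detected markers were not all alike between lines, as 2 of the 10 were at least 2-fold apart (20.0%, against 40.1% of all detected genes). Because each line is 1 culture on 1 array, no difference between lines has a replicate error, and fewer cells of a type and less RNA per cell cannot be told apart.

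Of all 18193 genes, 9415 were detected in at least 1 line. Of the 8 members, 5 were detected, each in all 4 lines, namely Gja1, Gja3, Gjb2, Gjc1 and Panx1. When a gene's probe sets were averaged, 4 were detected in 10d, without Gja1, and 4 in 13d, without Gja3, and at a detection level of 64 Gja1 was again not detected in 10d. The other 3, Gja4, Gja5 and Gjb6, lay between 5 and 8 on every array. Every detected member differed at least 2-fold between its highest and its lowest line, as did 40.1% of the 9415 genes detected in any line. This count describes how the members were picked and says nothing further about them.

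**Figure D1:**
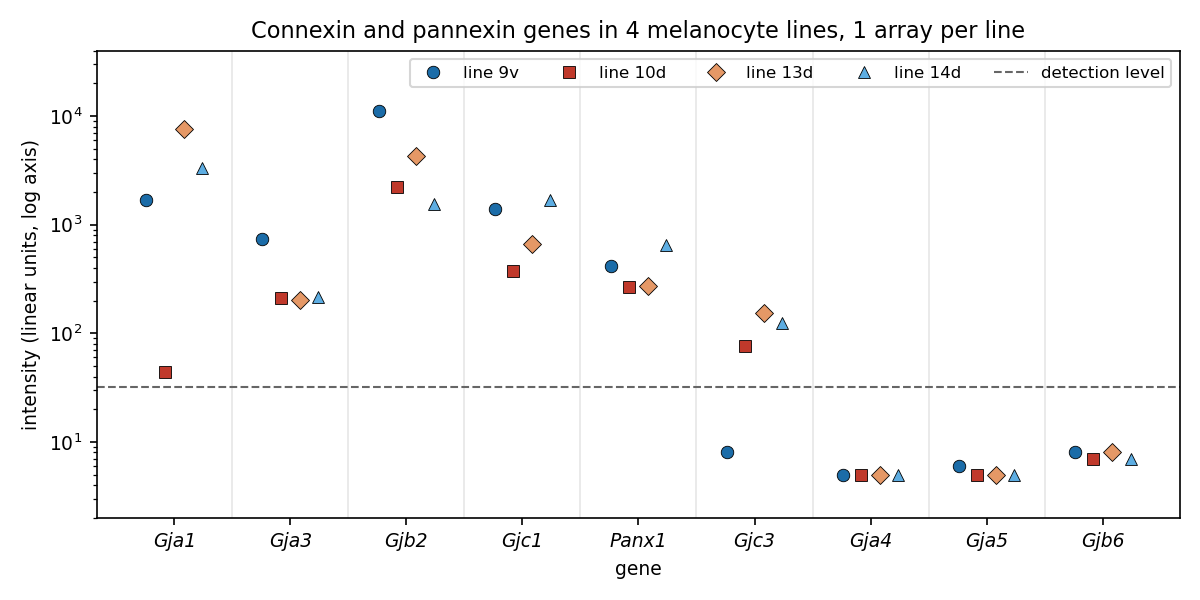
Intensity (log axis) of the 8 members and of Gjc3, another connexin gene, in the 4 lines, with 1 point per line and no error bars since each line had 1 array. The dashed line marks the detection level of 32; Gja1 spans 44 in 10d to 7630 in 13d, while Gja4, Gja5 and Gjb6 stay between 5 and 8.

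Gja1 encodes connexin 43 (Cx43), the most widespread gap junction protein of skin and heart. Its intensity was 1702 in 9v, 44 in 10d, 7630 in 13d and 3323 in 14d. Line 10d thus stood just above the detection level, far under the 3 other lines. The level in 13d was 173-fold that in 10d, a log2 difference of 7.44, and the level in 9v was 38.7-fold that in 10d. Lines 13d and 14d differed 2.3-fold, and lines 14d and 9v, its neighbours in the middle of the order, 1.95-fold. Of the detected genes, 0.106% had a larger distance between their highest and lowest line.

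The 5 measured markers of Schwann cells, glia that share an origin with melanocytes and also use Gja1, had summed intensities of 129 in 9v, 422 in 10d, 3877 in 13d and 39 in 14d. The brightest of them, S100b, a calcium-binding protein that melanocytes also make, had 58 in 9v, 308 in 10d, 3836 in 13d and 5 in 14d. The other detected marker, Pmp2, a myelin protein, ran in another order, with 44 in 9v, 54 in 10d, 15 in 13d and 9 in 14d, and so was under the detection level in 13d. Line 14d thus had S100b near the floor and Gja1 at 3323, and Mbp, another myelin protein, was at 7 or 8 in all lines. The part of such cells in the Gja1 values was not tested.

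Gja1 had 6 probe sets, and the 5 that were detected put the lines in the same order, 13d above 14d above 9v above 10d. Of these 5, only the representing and the dimmest one are not marked by name for possible cross-hybridization. In the dimmest one, 9v and 10d were both under the detection level. A second bright probe set, of the marked kind, had 1456 in 9v, 14 in 10d, 8294 in 13d and 3313 in 14d. This is at least 259-fold between 13d and 10d. The dimmest detected probe set had 20 in 9v, 4 in 10d, 294 in 13d and 97 in 14d, at least 9.19-fold between 13d and 10d. The remaining probe set had 20 on every array. The size of the Gja1 difference therefore depends on the probe set, and with the mean of all 6, line 10d is under the detection level and the log2 difference between 13d and 10d is at least 5.41.

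**Figure D2:**
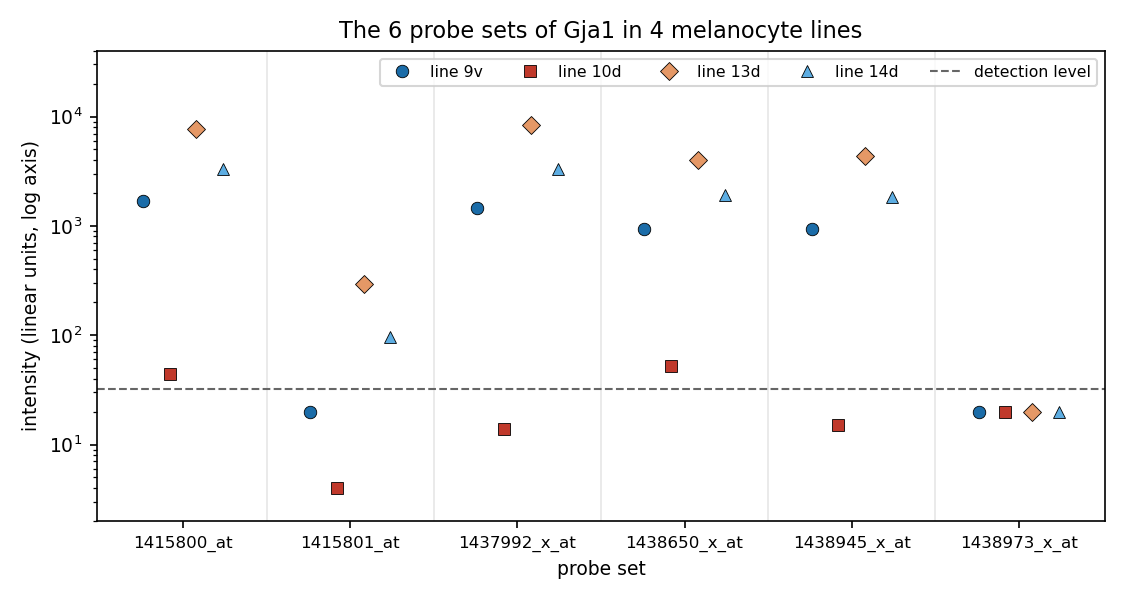
Intensity (log axis) of the 6 Gja1 probe sets in the 4 lines, 1 point per line, with the detection level of 32 dashed. In 5 probe sets line 13d is highest and line 10d lowest, and in the remaining one all lines have 20.

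The RefSeq promoter of Gja1 is shown because it holds the letters of a TPA response element, TGAGTCA, a motif bound by AP-1 factors. All lines were grown with TPA, and the part of this motif in the Gja1 values was not tested. The 250 bases before the start lie on the plus strand at chr10:56377050-56377299 (GRCm38.p6), and capitals mark the motif, which begins 19 bases before the start.
Gja1: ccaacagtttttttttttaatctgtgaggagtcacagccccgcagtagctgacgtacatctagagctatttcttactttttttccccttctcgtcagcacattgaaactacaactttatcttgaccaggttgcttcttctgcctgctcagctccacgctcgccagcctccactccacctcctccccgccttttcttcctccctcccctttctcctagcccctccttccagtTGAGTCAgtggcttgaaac
TGACTCA or TGAGTCA, which are the same motif read on either strand, occurs in 4.46% of 32851 promoters of this length. The Tcf/Lef core, searched as CTTTGA or CTTTGT on both strands because β-catenin acts through Tcf/Lef factors, was not among these letters of Gja1, nor were CACGTG or CATGTG, E-boxes of the kind read by Mitf.

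Gjb2 encodes connexin 26 (Cx26), a connexin of epithelia and the inner ear. Its intensity was 11104 in 9v, 2246 in 10d, 4333 in 13d and 1547 in 14d. Line 9v stood above each other line, 2.56-fold over 13d and 7.18-fold over 14d, a log2 difference of 2.84. Lines 13d and 10d differed 1.93-fold and lines 10d and 14d 1.45-fold, so no neighbours below 9v were 2-fold apart. Gjb2 was measured by a single probe set.

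Gja3 encodes connexin 46 (Cx46), best known from lens fibre cells. Its intensity was 744 in 9v, 213 in 10d, 202 in 13d and 216 in 14d. Line 9v was 3.68-fold above 13d, and the 3 lower lines lay within 1.07-fold of each other. Its second probe set was under the detection level, between 5 and 7 on every array, and with the mean of both, line 13d is under the level and the log2 difference between 9v and 13d is at least 1.17, in place of 1.88. Gja3 and Gjb2 were the 2 of 5 detected members at least 2-fold above every other line in 9v, as were 1.63% of all detected genes. The summed level of 9 measured fibroblast markers was also highest in 9v, with intensities of 2564 in 9v, 544 in 10d, 299 in 13d and 106 in 14d. Fbln1, a matrix protein, had 2294 in 9v, 379 in 10d, 162 in 13d and 15 in 14d. Col1a2, a chain of type I collagen, stood in the same order, with 175 in 9v, 80 in 10d, 24 in 13d and 17 in 14d. Not every marker did so, as Postn, a matrix protein and the third one detected, was highest in 13d at 61 against 38 in 9v. The other 6 were under the detection level in every line, among them Col1a1, the other type I collagen chain, between 20 and 23. Col3a1 and Dcn, defining fibroblast genes, lay between 4 and 8 in every line. Per the methods, fibroblasts were selected against with G418, and the part of such cells in the Gja3 and Gjb2 values was not tested. Gja3 and Gjb2 are next to each other on chromosome 14 in the RefSeq gene table, with Gjb6 the next protein-coding gene, and Gjb6 stayed under the detection level in every line.

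The promoter of Gjb2 is shown because, of the detected members with a promoter in the table, it alone holds a Tcf/Lef core. It lies on the minus strand at chr14:57104703-57104952 (GRCm38.p6), printed 5′ to 3′, and capitals mark the core, read here from its reverse strand and beginning 235 bases before the start.
Gjb2: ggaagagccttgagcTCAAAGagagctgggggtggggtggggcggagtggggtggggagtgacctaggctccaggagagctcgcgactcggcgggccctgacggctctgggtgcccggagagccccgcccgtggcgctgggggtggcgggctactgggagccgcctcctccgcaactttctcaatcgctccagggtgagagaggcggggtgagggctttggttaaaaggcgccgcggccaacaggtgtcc
Such a core occurs in 27.6% of all promoters of this length, and an E-box of the letters searched in 17.6%.

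Gjc1 and Panx1 shared the order of lines, 14d above 9v above 13d above 10d. Gjc1 encodes connexin 45 (Cx45), known from vascular smooth muscle and the conduction system of the heart. Its intensity was 1384 in 9v, 371 in 10d, 663 in 13d and 1678 in 14d. Lines 14d and 9v lay within 1.21-fold, 9v was 2.09-fold above 13d, and 13d was 1.79-fold above 10d. Its second probe set, marked by name for possible cross-hybridization, had 307 in 9v, 70 in 10d, 135 in 13d and 458 in 14d. This is the same order with 6.54-fold between 14d and 10d, against 4.52-fold by the brighter one.

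Panx1 encodes pannexin 1, an ATP-releasing channel. Its intensity was 419 in 9v, 268 in 10d, 275 in 13d and 655 in 14d. The level in 14d was 1.56-fold that in 9v and 2.44-fold that in 10d, while 13d and 10d lay within 1.03-fold. This was the smallest distance among the detected members, and 27.1% of detected genes had a larger one. Panx1 was measured by 1 probe set.

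Gja4 (connexin 37, Cx37) and Gja5 (connexin 40, Cx40) are connexins of endothelium, and Gjb6 (connexin 30, Cx30) is a connexin of epidermis and cochlea. Gja4 had 5 in every line. Gja5 had 6 in 9v and 5 in the other lines, and Gjb6 had 8 in 9v and 13d and 7 in 10d and 14d. These values lie at the floor of the array signal, where whole-number rounding makes ratios coarse, and no fold is given. Of 8 measured endothelial markers, none was detected in any line, with summed intensities from 81 (13d) to 102 (14d), and Pecam1 and Cdh5 at 5 and 6 on every array. Of 11 measured keratinocyte markers, Krt10 and Lor were detected in each line, with summed intensities of the list from 459 (14d) to 600 (10d), while the basal keratins Krt5 and Krt14 lay between 4 and 11 in all lines. Per the methods, keratinocytes do not grow in this medium.

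Among the members with a match, Gja5 is the 1 under the detection level in every line. Its promoter is shown because it holds a Tcf/Lef core, as does that of Gjb2, which was detected in every line. The part of this core in the level of either gene was not tested. The Gja5 promoter lies on the plus strand at chr3:97032152-97032401 (GRCm38.p6), with the core in capitals, beginning 125 bases before the start.
Gja5: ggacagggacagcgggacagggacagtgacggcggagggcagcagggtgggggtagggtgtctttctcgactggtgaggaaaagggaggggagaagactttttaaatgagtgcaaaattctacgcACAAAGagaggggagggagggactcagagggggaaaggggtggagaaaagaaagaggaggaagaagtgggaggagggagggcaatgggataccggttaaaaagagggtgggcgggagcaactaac
Promoters were given for 7 of the 8 members, 8 in all as Gja3 has 2, and 3 of them held any of the motifs searched. No promoter of Gjc1 was given, so it was not searched for motifs.

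Of 23 connexin and pannexin genes listed, 17 had a probe set of their own. Of the 9 that are not members, 8 lay between 4 and 8 in every line, among them Gjb1, Gjd2, Panx2 and Panx3. The exception was Gjc3, which encodes connexin 29 (Cx29), a connexin of myelinating glia. Its intensity was 8 in 9v, 76 in 10d, 153 in 13d and 124 in 14d. Line 9v was under the detection level and the other lines above it, at least 4.78-fold between 13d and 9v, but its second probe set lay between 6 and 8 in every line. Line 13d was highest for Gjc3 as it was for Gja1 and S100b, and for 21.3% of all detected genes. The lines below it stood in another order for each of the 3 genes.

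In pairs of lines, the number of members at least 2-fold apart ranged from 1 to 4 of the 5 detected. Lines 9v and 10d, which labels and article both give as WT and bcat*, were at least 2-fold apart in 4 members, as were 17.9% of the 9131 genes detected in either line. Each of these 4 was higher in 9v (10.0% of genes), with log2 differences, 9v minus 10d, of 5.27 for Gja1, 1.80 for Gja3, 2.31 for Gjb2 and 1.90 for Gjc1. The corresponding value for Panx1 was 0.64. Lines 9v and 13d, both WT by the article, were at least 2-fold apart in 4 members (13.0% of genes). Of these, Gja1 was higher in 13d, and Gja3, Gjb2 and Gjc1 were higher in 9v. Lines 9v and 14d, both WT by the labels, were at least 2-fold apart in Gja3 and Gjb2 (15.4% of genes). Both genes were higher in 9v (9.49% of genes). Gja1, higher in 14d, lay just short of 2-fold in this pair.

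Lines 10d and 13d, both bcat* by the labels, were at least 2-fold apart in 1 member, Gja1 (14.8% of genes). Lines 10d and 14d, both bcat* by the article, were so in 3 members, Gja1, Gjc1 and Panx1 (23.9% of genes). All 3 were higher in 14d (11.4% of genes). Lines 13d and 14d were at least 2-fold apart in 4 members (19.7% of genes). Gja1 and Gjb2 were higher in 13d, and Gjc1 and Panx1 were higher in 14d. These pairs share lines and the members were chosen from the same values, so the counts are set side by side without a comparison between them. Line 10d was the lowest of the 4 lines in 3 members, Gja1, Gjc1 and Panx1, as in 24.7% of all detected genes, and was the highest in none of the 5, against 28.8% of all detected genes.

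**Figure D3:**
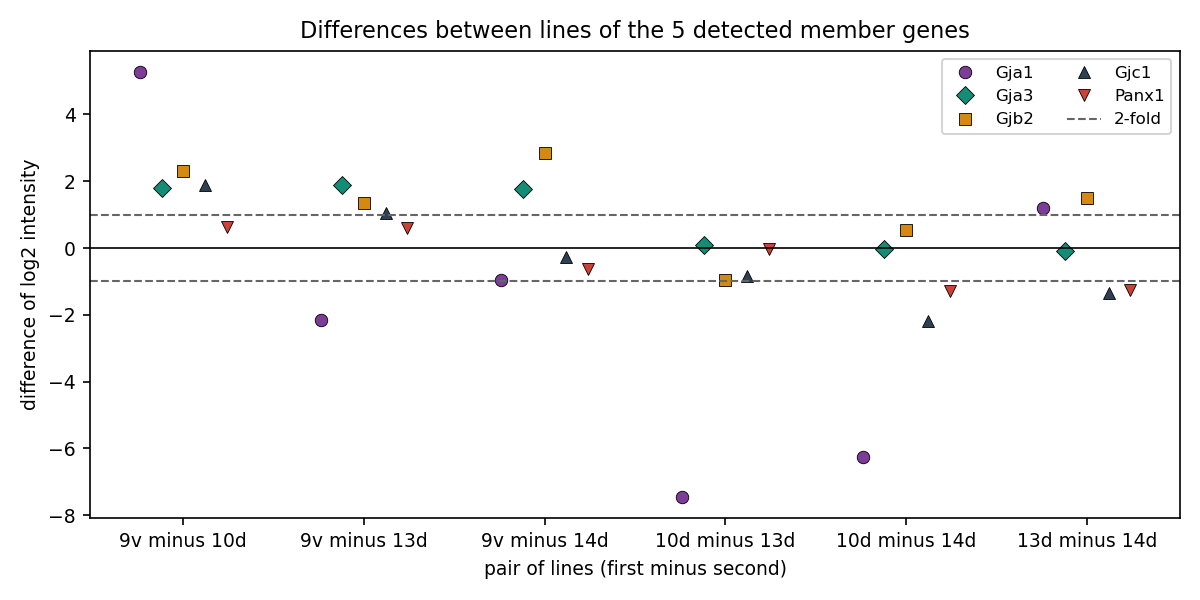
Difference of log2 intensity (first line minus second) of the 5 detected members in the 6 pairs of lines, with 2-fold dashed. All 5 lie above 0 for 9v minus 10d, and Gja1 reaches -7.44 for 10d minus 13d.

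The members did not separate the lines in 1 common way. With 4 different values, the upper 2 lines of any gene form 1 of only 3 possible splits, which here are genotype by the labels, genotype by the article and sex by the labels. By the labels, Gja3, Gjc1 and Panx1 were higher in both WT lines (9v and 14d) than in both bcat* lines (10d and 13d), and the groups did not overlap, in either direction, in 37.9% of 9415 genes, with the WT lines above in 19.5%. The gap, from the lowest WT line to the highest bcat* line, was 2.09-fold for Gjc1, 1.52-fold for Panx1 and 1.01-fold for Gja3, where 14d had 216 and 10d 213. With the mean of both probe sets Gja3 left this split, and 2 members remained in it. By the article, Gjb2 was higher in both WT lines (9v and 13d) than in both bcat* lines (10d and 14d), with a gap of 1.93-fold, while 30.2% of genes did not overlap in either direction and 14.1% had the WT lines above. Gja1 was higher in both lines labelled female (13d and 14d) than in both labelled male (9v and 10d), with a gap of 1.95-fold, while 25.7% of genes did not overlap in either direction and 12.7% had the female lines above. A difference between genotypes, between sexes and between single lines cannot be told apart in these values.

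**Figure D4:**
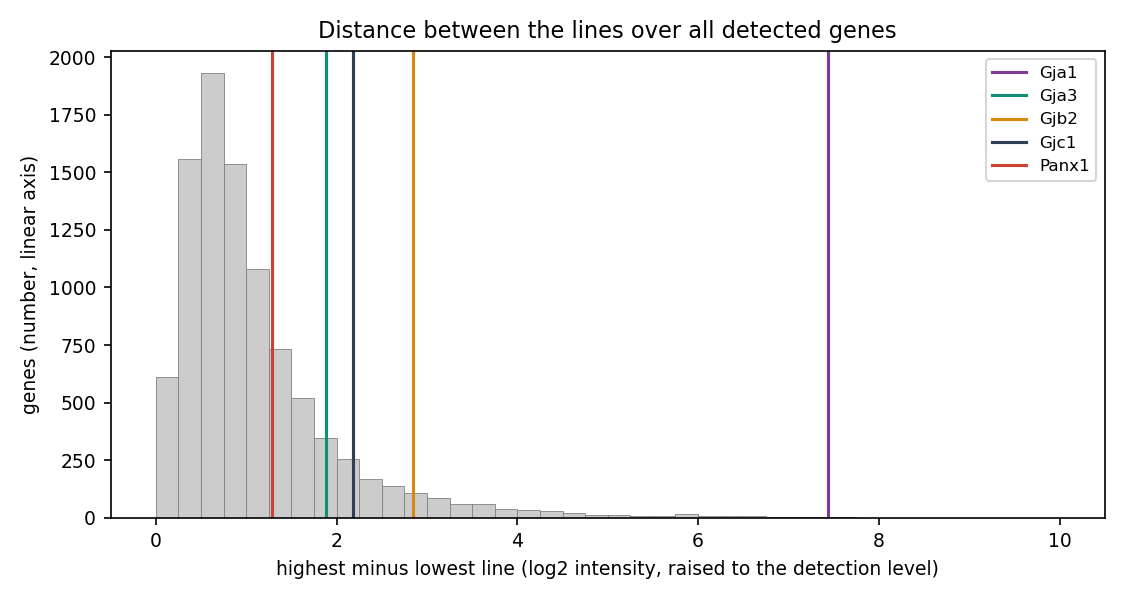
Number of genes (linear axis) by the log2 distance between their highest and lowest line, over the 9415 detected genes, with the 5 detected members as vertical lines. Panx1 (1.29) lies nearest to the bulk of genes and Gja1 (7.44) far out in the tail.

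Genes of proteins that anchor, traffic or degrade connexins were mostly detected as RNA. Of 16 measured genes of this list, 13 were detected, against 9415 of all 18193 genes. Of these 13, 7 were at least 2-fold apart between lines (53.8%, against 40.1% of all detected genes). Their median log2 distance was 1.05, against 0.84 over all detected genes. Ezr, ezrin, which links membrane proteins to actin and holds kinase A near Cx43, had 366 in 9v, 1029 in 10d, 1826 in 13d and 1327 in 14d, so that 9v was lowest. Dbn1, drebrin, an actin-binding partner of Cx43, had 183 in 9v, 37 in 10d, 37 in 13d and 99 in 14d. Cdh1, E-cadherin, the adhesion molecule that joins melanocytes to keratinocytes, had 12 in 9v, 14 in 10d, 272 in 13d and 16 in 14d. Cdh1 was thus detected in 13d alone, the line highest for Gja1 and for 21.3% of all detected genes. Sgsm3, a partner of Cx43, had 219 in 9v, 369 in 10d, 592 in 13d and 238 in 14d. Tjp1, the scaffold ZO-1 that binds the tail of Cx43, was named after its values were seen and ranged from 1837 (10d) to 2507 (13d).

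Other large-pore channels were counted for the company of Panx1. Of 8 measured genes, 5 were detected, against 9415 of all 18193 genes. Of these 5, 3 were at least 2-fold apart between lines (60.0%, against 40.1% of all detected genes). The median log2 distance was 1.12, against 0.84 over all detected genes. Calhm5, of the calcium homeostasis modulator channels, had 8 in 9v, 21 in 10d, 8 in 13d and 699 in 14d. Calhm2 had 37 in 9v, 95 in 10d, 98 in 13d and 301 in 14d. Both genes were thus highest in 14d, as were Panx1 and 29.5% of all detected genes. Lrrc8c, a subunit of volume-regulated anion channels, had 657 in 9v, 817 in 10d, 1315 in 13d and 1430 in 14d. Lrrc8a, the subunit these channels require, ranged from 582 (13d) to 1019 (10d).

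Receptors and enzymes of extracellular ATP and adenosine were mostly under the detection level, with 2 of 19 measured genes detected, against 9415 of all 18193 genes. P2rx4, an ATP-gated channel, had 879 in 9v, 725 in 10d, 710 in 13d and 1240 in 14d, a distance of 1.75-fold. P2rx3, another, had 7 in 9v, 268 in 10d, 61 in 13d and 7 in 14d, at least 8.37-fold between 10d and 9v. P2rx7, often studied together with pannexin 1, had 9 in every line.

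**Figure D5:**
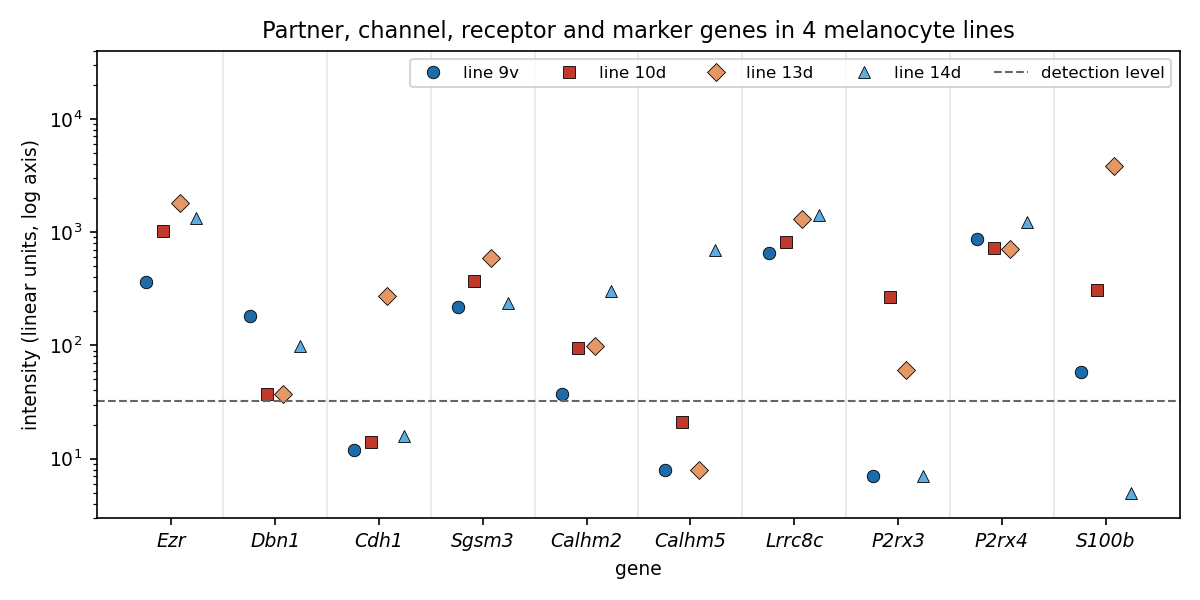
Intensity (log axis) of genes of the connexin partner, large-pore channel and extracellular nucleotide lists and of S100b in the 4 lines, 1 point per line, with the detection level of 32 dashed. Cdh1 is above the level in 13d (272) alone, and Calhm5 in 14d (699) alone.

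Among 3660 genes at least 2-fold apart between lines, those with the pattern most like each member were found by the mean absolute difference of centred log2 values over the 4 lines. Hsd17b11, a lipid droplet dehydrogenase, was nearest to Gja1, at a distance of 0.52, with 5623 in 9v, 136 in 10d, 8332 in 13d and 7436 in 14d. Cd200, a membrane glycoprotein, followed at 0.75. The gene nearest to Gja1 lay further off than those nearest to the other members. This distance is not scaled to a gene's range, which was widest for Gja1 among the members, so it does not show a more singular pattern. For Gjc1, Fam102b lay at 0.03 with 2012 in 9v, 550 in 10d, 954 in 13d and 2573 in 14d, and Cd276 at 0.09. For Panx1, Ppp3ca, a catalytic subunit of calcineurin, lay at 0.04 with 1988 in 9v, 1370 in 10d, 1393 in 13d and 3173 in 14d, and Yipf2 at 0.05. For Gjb2, Eda2r lay at 0.10 and Slc35g1 at 0.18, and for Gja3, Eva1a at 0.03 and Nt5dc2 at 0.04. Both of the latter were under the detection level outside 9v, so their nearness to Gja3 is set by that level and is no likeness of measured values. Eda2r and Slc35g1 were under it in 14d, and Cd276 and Cd200 in 10d, so that these distances rest in part on the level. Between members, the nearest patterns were those of Gjc1 and Panx1, at 0.37, and of Gja3 and Gjb2, at 0.52.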

How the data were processed

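The authors deposited 1 intensity per probe set for each of 4 lines, made with GCRMA per the submitters' processing notes, with its version not given there. The values, whole numbers from 2 to 84904, were read as a linear scale and converted to log2. Their rounding limits ratios at low intensity, and 1 array per line limits the precision. Of 45037 probe sets, 34945 were listed with 1 gene in the platform annotation, 932 with several and 9160 with none, and none was named from several. The probe set brightest on average in log2 stood for its gene, and 9010 genes had over 1. For differences, values were raised to the detection level of 32, and a fold to a line under it is given as at least that fold. The threshold was 2-fold.

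The members and gene lists were chosen with earlier results of these data known. The split by sex was added after the values were seen. The text names the members, other detected family genes, up to 4 detected genes per partner list with the largest distance, the brightest 2 genes of a marker list where it matters to a member, and the 2 most similar genes per member, besides those said to be named later and a few undetected defining markers. Promoter letters came from RefSeq, assembly GRCm38.p6. Counting was tested on simulated data. Python 3.11.15, NumPy 2.4.6, pandas 2.3.3 and Matplotlib 3.10.9 were used.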

Additional observations from a re-analysis of the deposited data

How the results depend on the processing

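With 1 array per line, no paired analysis was possible because no line has a second array, and none could be left out. The 19 results were recomputed under 8 alternatives, and 7 of 126 values moved by over 1.5 times, with 0 reversed. A log2 distance was judged as its fold. The results covered members detected per line, members apart per pair, non-overlapping members, detected family genes and the distance of each detected member. With the mean of all probe sets, undetected ones included, the log2 distance between 13d and 10d was 5.41 for Gja1 and that between 9v and 13d was 1.17 for Gja3, both at least so since the lower line was under the detection level, and 2 members separated the lines by labelled sex, Gja1 with the female and Gja3 with the male lines higher. The members detected in 10d and in 13d were then 4 each in place of 5, and 4 in 10d at a detection level of 64. At a threshold of 1.5-fold, 4 members were apart between 9v and 14d and 3 between 10d and 13d. At 3-fold, 2 were apart between 9v and 13d and 0 between 13d and 14d, since the threshold sets such counts. Centring on the 75th percentile, quantile normalization and detection levels of 16 or 64 moved none of these values by that much. Leaving out probe sets of possible cross-hybridization could move none of the 19 results, since no such probe set represented a family gene. Its 19 unchanged values, counted among the 126, were thus fixed in advance. Signal near the floor limits what can be said of Gja4, Gja5, Gjb6 and of Gja1 in 10d.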
